A study of Rattus norvegicus with 2 samples.

Results

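Chemokines that a vessel wall can make, 10 in all, were followed through the cell types of the rat carotid artery, with and without balloon injury: Ccl2, Ccl7, Ccl11, Cxcl1, Cxcl2, Cxcl10, Cxcl12, Cxcl14, Cxcl16 and Cx3cl1. These 10 genes were found by symbol among the 32623 genes of the matrix. Single-cell RNA-seq (10x Chromium, polyA RNA) had been run on carotid arteries of male SD rats whose age is given as 12 weeks, taken 28 days after surgery. The uninjured left arteries of 2 rats were pooled into the control library, and the balloon-injured right arteries of the same 2 rats into the case library. There was therefore 1 library per group and no replicate: every difference given here lies between these libraries, and it carries neither a p-value nor an estimate of the spread between animals. Each artery was opened into single cells with trypsin and collagenase, and the file names its libraries only by a barcode suffix, which was matched to an artery by the number of barcodes.

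Chemokines are small secreted proteins that bind to the vessel wall and draw leukocytes along a gradient through receptors on those cells. CCL2 and CCL7 attract monocytes through CCR2, CCL11 attracts eosinophils through CCR3, CXCL1 and CXCL2 attract neutrophils through CXCR2, and CXCL10 attracts activated T cells through CXCR3. CXCL12, the ligand of CXCR4, retains and guides progenitor cells and is taken up by the scavenger receptor ACKR3. CXCL14 is made constitutively by many stromal tissues, whereas CXCL16 and CX3CL1 are tethered to the membrane and shed by the proteases ADAM10 and ADAM17.

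The control library held 3321 barcodes with 24968329 UMIs (unique molecular identifiers, 1 per captured transcript), and the case library 5656 barcodes with 28232614 UMIs. After filtering, 2229 control cells and 4890 case cells remained, with a median of 10919 and 5173.5 UMIs per cell, so that a control cell was sampled more deeply than a case cell. The share of cells holding a UMI of a gene is therefore given as counted and, as the thinned share, after every cell was cut at random to 1000 UMIs. Both libraries shared 21 barcode sequences, 15 of them among the control cells used and 9 among the case cells used.

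Cells were put into classes by a gate on marker genes rather than by the chemokines. Vascular smooth muscle cell (VSMC)-like cells numbered 1006 in the control and 2373 in the case library, fibroblast-like cells 750 and 1501, endothelial-like cells 55 and 238, macrophage-like cells 48 and 111, and Schwann-like cells 18 and 45. A further 227 and 291 cells carried both VSMC and fibroblast markers, and 125 and 331 met no gate. The 6 VSMC markers made up 2.65% and 2.15% of the UMIs of VSMC-like cells against 0.101% in fibroblast-like cells of both libraries. The fibroblast markers took 5.27% and 4.36% of the UMIs of fibroblast-like cells but only 0.333% and 0.292% in the VSMC-like class, and the macrophage markers 1.17% and 1.43% of those of macrophage-like cells. Since the VSMC and fibroblast gates are ranges on 1 scale, 6.16% and 6.78% of VSMC-like cells and 2.67% and 2.86% of fibroblast-like cells lay within 5 percentage points of their cut. None of the neutrophil, T cell, B cell and mast cell marker sets took more than 0.00272% of the UMIs of any class.

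Levels are given as CPM, the gene's UMIs summed over the cells of a class and library per 1000000 UMIs of those cells. Their 95% intervals are exact Poisson intervals, those of shares of cells are exact Clopper-Pearson intervals, and both cover counting error only. A chemokine was called higher or lower in the case library when its CPM differed by more than 1.5-fold and it had at least 20 UMIs over both libraries. Transcripts set free during digestion can enter every droplet, and levels of marker genes outside their own class are given beside this. In VSMC-like cells the fibroblast transcript Dcn stood at 1.35% and 1.68% of its fibroblast-like level, and Pi16 at 0.256% and 0.458%. The macrophage transcript C1qb stood at no more than 0.0433% of its macrophage-like level in any other class. The VSMC transcripts Myh11 and Tagln stood at 2.28% to 3.79% of theirs outside VSMC-like cells. These genes, like Dpt and Lyz2 below, are themselves markers of the gate, which limits their level in other classes. They are therefore no measure of free RNA, and comparisons with them below only set levels side by side.

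The sequences upstream of 3 chemokine genes are shown because these genes differed in the classes that carried them, although Cxcl1 and Cxcl2 are direct neighbours on chromosome 14 and Cxcl10 lies on the same chromosome between Cxcl11 and Cxcl9. Each is the 250 bases before the RefSeq start site in the rat build GRCr8, written 5′ to 3′ on the strand of the gene. Capitals mark matches to the kappaB letters GGGNNNNNCC on either strand, overlapping matches run together, and in Cxcl10 also the match to the interferon-stimulated response element letters GAAANNGAAA.
Cxcl1, chr14:17479322-17479571, minus strand: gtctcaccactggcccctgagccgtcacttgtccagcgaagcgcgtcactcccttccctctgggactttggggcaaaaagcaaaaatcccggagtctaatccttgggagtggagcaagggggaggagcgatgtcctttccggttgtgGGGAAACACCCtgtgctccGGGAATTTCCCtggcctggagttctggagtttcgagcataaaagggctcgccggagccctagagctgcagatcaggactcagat
Cxcl2, chr14:17467256-17467505, minus strand: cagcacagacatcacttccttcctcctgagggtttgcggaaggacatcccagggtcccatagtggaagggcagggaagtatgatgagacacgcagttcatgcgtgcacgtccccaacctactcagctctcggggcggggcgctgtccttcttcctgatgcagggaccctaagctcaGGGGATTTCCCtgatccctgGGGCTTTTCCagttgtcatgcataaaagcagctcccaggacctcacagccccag
Cxcl10, chr14:15988816-15989065, plus strand: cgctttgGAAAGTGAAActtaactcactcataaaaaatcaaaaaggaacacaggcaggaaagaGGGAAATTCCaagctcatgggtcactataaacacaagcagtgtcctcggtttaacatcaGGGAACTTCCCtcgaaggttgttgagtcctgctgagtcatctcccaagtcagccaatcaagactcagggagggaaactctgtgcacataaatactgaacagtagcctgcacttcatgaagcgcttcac

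Of the 10 chemokines, 8 had a promoter entry, and 4 of these 8 (Ccl7, Cxcl1, Cxcl2 and Cxcl10) held the kappaB letters, which 42.3% of all 33469 promoters of that length hold. The 2 blocks in Cxcl1 began 103 and 84 bases before the start site, and those in Cxcl2 74 and 54 bases before it. The interferon element letters occurred in 1 of 8, Cxcl10, beginning 243 bases before its start, against 3.41% of all promoters. The AP-1 letters TGANTCA occurred in 3 of 8 (Ccl7, Cxcl10 and Cxcl14) against 6.34% of all promoters, and TATAAA in 3 of 8 against 12.9%. The cyclic AMP response element letters TGACGTCA occurred in 0 of 8 against 1.59%. A match describes letters only. Ccl2, Ccl7 and Ccl11 lie side by side on chromosome 10, and Cx3cl1 lies between Ccl17 and Ccl22 on chromosome 19.

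In the control artery some chemokines lay mostly in 1 class, while others were spread over several. Fibroblast-like cells, 33.7% of the cells used, held 86.4% of all Ccl2 UMIs, 83.3% of Cxcl1, 82.2% of Cxcl12 and 98.8% of Cxcl14. Macrophage-like cells, 2.15% of the cells, held 85.3% of Cxcl2. They also held 36.1% of Ccl7, of which fibroblast-like cells held 54.3%. VSMC-like cells held 71.9% of Cx3cl1. Cxcl10 was spread, with 41.6% in fibroblast-like, 19.9% in macrophage-like, 19.3% in VSMC-like and 12.0% in endothelial-like cells. So was Cxcl16, with 41.8% in fibroblast-like, 26.9% in VSMC-like and 16.6% in endothelial-like cells. In the injured artery the fibroblast-like part was smaller for Ccl2 (70.1%) and Cxcl1 (56.4%), while endothelial-like cells, 2.47% of the control and 4.87% of the case cells, held 4.87% of Ccl2 against 0.102% in the control and 8.13% of Cxcl1 against 0.917%. These shares depend on how many cells of each class were recovered from each artery as well as on the level per cell.

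**Figure D1:**
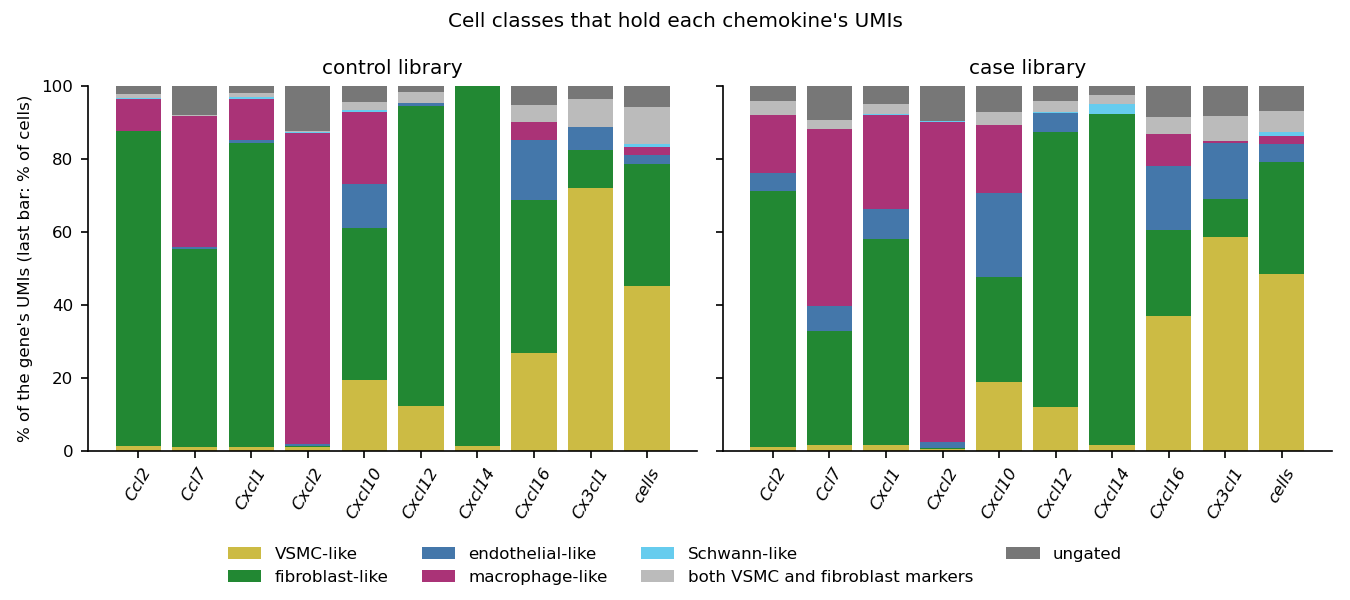
Share of each chemokine's UMIs (vertical axis, percent) held by each cell class, with the share of cells in the last bar, for the control (left) and case (right) library; Ccl11 is left out for its low count. Macrophage-like cells held 85.3% and 87.5% of Cxcl2, and fibroblast-like cells held most of Ccl2, Cxcl1, Cxcl12 and Cxcl14 in both libraries.

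Macrophage-like cells were the densest source. The 10 genes together made up 2.91% and 2.99% of all their UMIs in the control and case library, against 0.66% and 0.352% in fibroblast-like, 0.246% and 0.386% in endothelial-like and 0.0201% and 0.0183% in VSMC-like cells. After thinning, 68.8% of control and 57.7% of case macrophage-like cells held at least 3 of the 10 genes, against 9.47% and 7.59% of fibroblast-like cells, 7.27% and 13.0% of endothelial-like cells, and 0.0994% of control and 0% of case VSMC-like cells (0 of 2373, which allows a share of up to 0.126%).

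**Figure D2:**
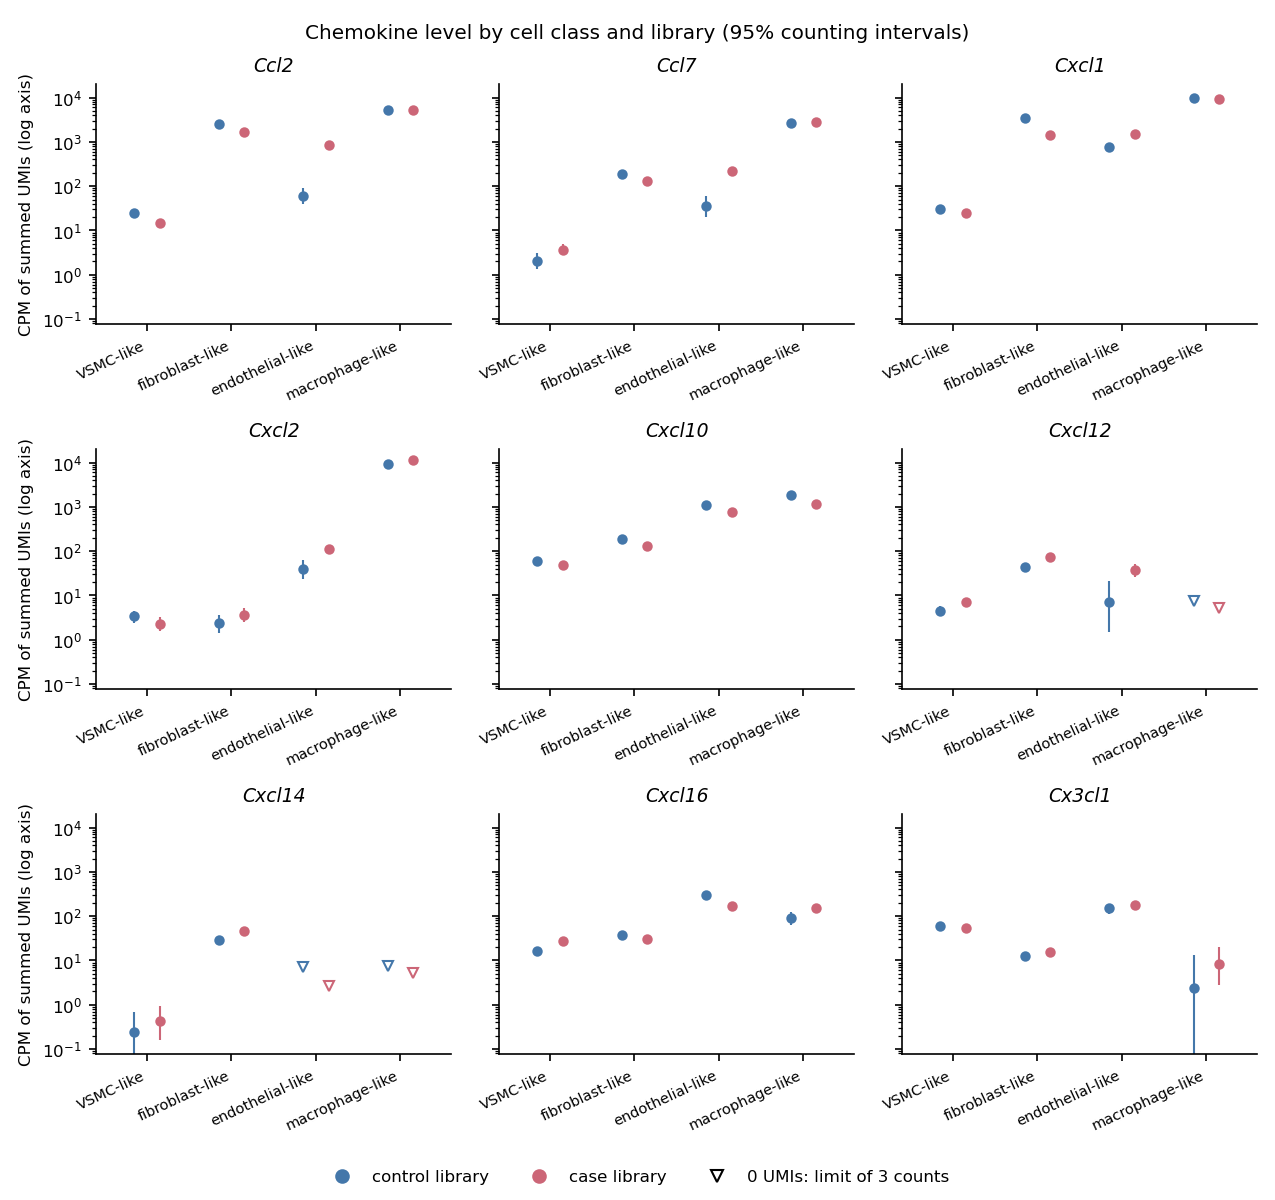
Level of 9 chemokines (CPM of summed UMIs, log axis) in 4 cell classes of the control and case library, with 95% Poisson intervals for counting error; open triangles are the limit that a count of 0 allows. Ccl2 in endothelial-like cells was 61.5 CPM in the control and 846 CPM in the case library, while its macrophage-like levels, 5306 and 5266 CPM, overlay each other.

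Across classes, the chemokines were mostly higher in the case library in endothelial-like cells and split in the others. In endothelial-like cells 5 of 8 chemokines compared were higher (Ccl2, Ccl7, Cxcl1, Cxcl2 and Cxcl12) and 1 was lower (Cxcl16). Of the 6133 genes compared there, 19.8% were past 1.5-fold higher and 28.8% past it lower. The median log2 ratio was 1.22 for the chemokines and -0.14 for all genes. Ccl7, Cxcl2 and Cxcl12 had 15, 17 and 3 control UMIs and reached the limit of 20 only through the case library, where they were higher. The count and the median rest partly on them. Of the others, Ccl2 and Cxcl1 were higher and Cxcl16 lower. Fibroblast-like cells had 3 of 9 higher (Cxcl2, Cxcl12 and Cxcl14) and 2 lower (Ccl2 and Cxcl1), where 9.66% and 16.2% of 10913 genes were past the fold, and the medians were -0.32 and -0.08. Among VSMC-like cells 3 of 8 were higher (Ccl7, Cxcl12 and Cxcl16) and 1 lower (Ccl2), where 8.07% and 17.4% of 11573 genes were past the fold, with medians of -0.20 and -0.14. Macrophage-like cells had 1 of 6 higher (Cxcl16) and 1 lower (Cxcl10), where 20.9% and 14.8% of 4420 genes were past the fold, with medians of 0.06 and 0.08. Scaling by the trimmed mean of M-values (TMM) would add 0.29 to every endothelial log2 ratio and 0.13 to every VSMC one, 0.06 in fibroblast-like cells and -0.01 in macrophage-like cells. In graph clusters formed without the chemokines, part of each large class lay in clusters made up mostly of case cells: 682 of the 711 cells of 1 fibroblast cluster, 1124 of the 1165 of 1 VSMC cluster and 145 of the 153 of 1 endothelial cluster. The class differences below therefore compare classes whose mix of clusters differs between the libraries. Chemokine levels were not read per cluster, and the part of this mix in the differences was not tested.

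**Figure D3:**
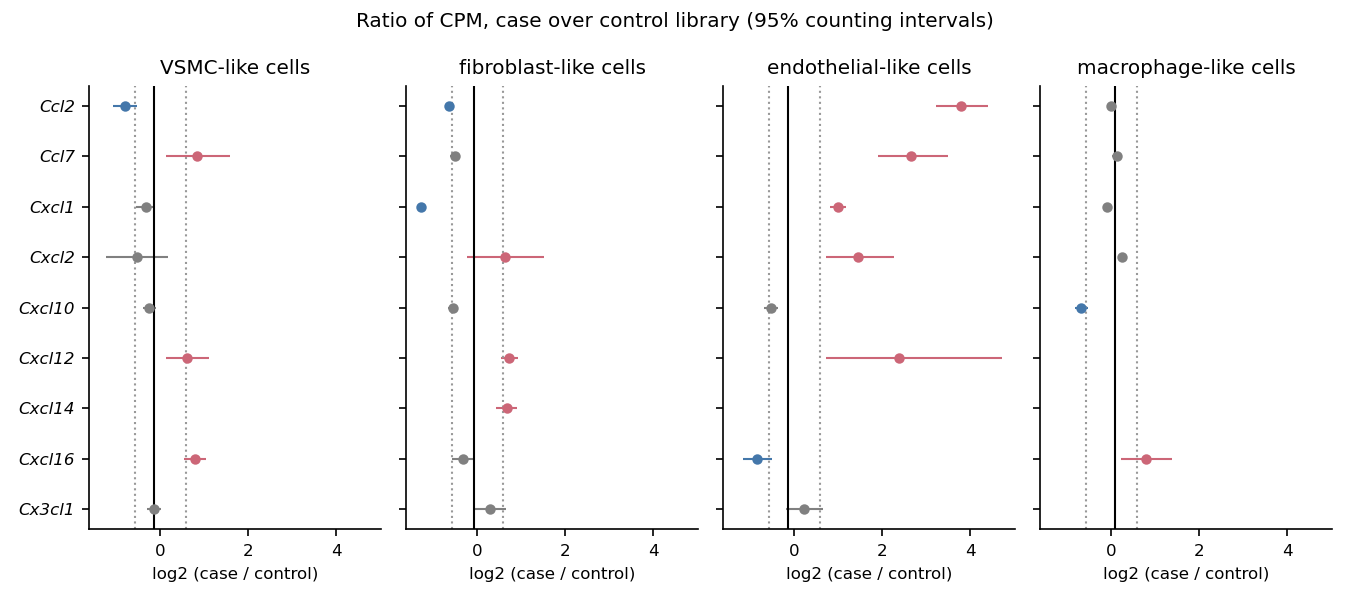
Log2 ratio of CPM, case over control, of each chemokine compared in 4 cell classes, with 95% counting intervals; dotted lines mark 1.5-fold, the black line is the median of all genes compared in that class, and red and blue points are past the fold. Ccl2 and Ccl7 stood at 3.78 and 2.64 in endothelial-like cells, and Cxcl1 at -1.28 in fibroblast-like cells.

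Ccl2, the main monocyte attractant, was high in macrophage-like and fibroblast-like cells of both arteries and appeared in endothelial-like cells mainly after injury. In macrophage-like cells its level was 5306 CPM (5085 to 5534) in the control and 5266 CPM (5082 to 5455) in the case library, and 91.7% and 85.6% of these cells held a UMI (thinned, 72.9% and 62.2%). These levels overlapped. Fibroblast-like cells carried 2588 CPM (2554 to 2622) in the control and 1643 CPM (1615 to 1671) in the case library, 1.57-fold lower after injury, with a log2 ratio of -0.66 (-0.69 to -0.62). The ratio fell inside the 1.5-fold limit when each cell was thinned to the same depth (-0.49), and the share of fibroblast-like cells with a UMI was 61.7% and 51.1% (thinned, 37.7% and 34.2%).

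Endothelial-like cells held 26 Ccl2 UMIs in the control library, or 61.5 CPM (40.2 to 90.2), and 940 in the case library, or 846 CPM (793 to 902). The level was 13.8-fold higher in the case library, with a log2 ratio of 3.78 (3.22 to 4.40). Few cells carried it: 6 of 55 control cells (10.9%, 4.11% to 22.3%; thinned 5.46%) and 57 of 238 case cells (23.9%, 18.7% to 29.9%; thinned 19.3%), the intervals of the unthinned shares overlapping. Of the control UMIs 18 lay in a single cell, whereas 27 case cells held 10 or more each and together 90.9% of the case UMIs. The fibroblast markers made up 0.0547% and the endothelial markers 0.309% of the UMIs of those 27 cells, against 0.0422% and 0.380% in case endothelial-like cells without Ccl2, the VSMC markers 0.155% against 0.105%, and their macrophage markers were at 0. The part of these markers in the result was not tested. With graph clusters of 62 control and 307 case cells in place of the gate the fold was 2.87, from 256 to 737 CPM, and without the 1% of cells richest in the gene it was 35.2. VSMC-like cells had 25.1 and 14.4 CPM, under 1% of the macrophage-like level (0.473% and 0.273%) and lay below the fibroblast-like level by a factor between those of the fibroblast markers Dcn and Dpt; 4 control cells held 70.9% of these UMIs, and the log2 ratio of -0.80 turned to 0.081 once the cells most like doublets were taken out.

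Ccl7, a second CCR2 ligand encoded next to Ccl2, was highest in macrophage-like cells in both libraries. Macrophage-like cells had 2596 CPM (2442 to 2757) in the control and 2856 CPM (2721 to 2996) in the case library, and fibroblast-like cells 188 and 132 CPM, neither ratio past 1.5-fold (log2 0.14 and -0.51). In endothelial-like cells it was 35.5 CPM (19.9 to 58.6) from 15 UMIs in the control and 222 CPM (195 to 251) from 246 UMIs in the case library, 6.24-fold higher; the fold was 3.77 in graph clusters, 21.9 under a stricter gate and 12.2 without the 1% of cells richest in the gene. The same control cell that held 18 Ccl2 UMIs held 10 of the 15 Ccl7 UMIs. Counted at 1000 UMIs per cell, Ccl7 was found in 18.4% of control fibroblast-like cells with Ccl2 and 2.78% of those without it, and in 14.4% and 2.33% of case cells. Among case endothelial-like cells the corresponding shares were 39.1% and 2.08%. In VSMC-like cells Ccl7 rested on 26 and 51 UMIs, 2.08 and 3.70 CPM, and its log2 ratio of 0.83 was -0.03 under a stricter gate and -1.39 in graph clusters.

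Ccl11, the eosinophil attractant, was close to absent. Fibroblast-like cells held 2 UMIs in the control and 3 in the case library, VSMC-like cells 0 and 1, and endothelial-like and macrophage-like cells 0 in both libraries, which allows up to 7.10 and 2.70 CPM in endothelial-like and 7.33 and 5.09 CPM in macrophage-like cells. A single control cell that met no gate held 24 UMIs, more than all gated cells together.

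Cxcl1, a neutrophil attractant, was the chemokine with the largest difference in fibroblast-like cells. Its level there was 3511 CPM (3472 to 3552) in the control and 1445 CPM (1419 to 1471) in the case library, 2.43-fold lower after injury, with a log2 ratio of -1.28 (-1.31 to -1.25). A UMI was found in 70.9% of control and 44.4% of case fibroblast-like cells, and after thinning in 45.3% and 27.2%. The ratio lay between -1.45 and -1.22 under the 10 other settings tried. Macrophage-like cells held still higher levels, 9867 CPM (9565 to 10180) and 9237 CPM (8993 to 9486), which differed by less than 1.5-fold.

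Endothelial-like cells differed the other way for Cxcl1. They had 776 CPM (695 to 865) in the control and 1542 CPM (1470 to 1617) in the case library, 1.99-fold higher, while the share with a UMI was 50.9% and 49.2% (thinned, 29.1% and 31.5%). With a similar share of carrying cells, Cxcl1 took a larger part of the UMIs in the case library. Endothelial-like cells there had a median of 4055.5 UMIs, against 7013 in the control. Cells with 10 or more Cxcl1 UMIs, 11 of 55 in the control and 42 of 238 in the case library, held 86.0% and 85.3% of the gene's UMIs. VSMC-like cells had 30.9 and 24.5 CPM, 0.313% and 0.265% of the macrophage-like level.

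Cxcl2, which acts on the same receptor as Cxcl1, was a macrophage-like transcript. Its level was 9385 CPM (9091 to 9687) in the control and 11170 CPM (10900 to 11440) in the case library, within 1.5-fold, and 93.8% and 86.5% of macrophage-like cells held it (thinned, 83.3% and 71.2%). Of macrophage-like cells with Cxcl1 after thinning, 94.4% and 90.9% also held Cxcl2. In fibroblast-like cells, where Cxcl1 was among the abundant chemokines, Cxcl2 had 20 and 30 UMIs, 2.36 and 3.64 CPM, or 0.0251% and 0.0326% of its macrophage-like level. The share of C1qb in these cells was higher (0.0338% and 0.0433%). That of Lyz2, another macrophage transcript, was lower than the Cxcl2 share in the control (0.0144%) and higher in the case library (0.0481%). The Cxcl2 shares there were thus near those of these macrophage transcripts, whose own level in this class the gate limits. The 1.5-fold call of Cxcl2 in fibroblast-like cells was lost on thinning, where the log2 ratio was -0.001. Endothelial-like cells had 40.2 CPM from 17 UMIs and 110 CPM from 122 UMIs, 2.73-fold higher in the case library, carried by 4 of 55 and 15 of 238 cells.

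Cxcl10, the interferon-inducible T cell attractant, was spread over all 4 classes and was in none of them called higher after injury. Macrophage-like cells had 1867 CPM (1737 to 2004) in the control and 1166 CPM (1080 to 1256) in the case library, 1.6-fold lower, a difference that was -0.39 on the log2 scale after thinning and so no longer past the fold. Endothelial-like cells had 1093 CPM (996 to 1198) and 758 CPM (708 to 811), with a UMI in 47.3% and 37.8% of cells (thinned, 23.6% and 24.8%). Fibroblast-like cells had 188 and 129 CPM, and VSMC-like cells 59.5 and 49.9 CPM, 3.18% and 4.28% of the macrophage-like level. In the control library 26 VSMC-like cells held 64.7% of the VSMC-like UMIs, and in the case library 10 cells held 29.7%.

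Other interferon-induced genes also had a lower summed level in case macrophage-like cells. Isg15 was at 526 and 227 CPM, Ifit3 at 841 and 484 CPM and Gbp2 at 315 and 199 CPM, while Irf1 was within 1.5-fold at 75.8 and 91.6 CPM. The 10% of cells richest in Isg15, Ifit3 or Gbp2 held 65.9% to 83.5% of that gene's UMIs in either library. After thinning, the share of cells with a UMI was higher in the case library for Isg15 (10.4% and 16.2%). It was level for Gbp2 (16.7% and 16.2%) and lower in the case library for Ifit3. In endothelial-like cells Ifit3 went the other way, at 11.8 and 83.7 CPM from 5 and 93 UMIs, while Irf1 was 587 and 383 CPM, past the fold as scaled here and inside it with TMM factors (log2 -0.62 and -0.33).

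Cxcl12, the ligand of CXCR4, was a fibroblast-like transcript that was higher after injury. Fibroblast-like cells had 44.6 CPM (40.2 to 49.3) from 378 UMIs in the control and 73.6 CPM (67.9 to 79.7) from 606 UMIs in the case library, 1.65-fold higher, with a log2 ratio of 0.72 (0.54 to 0.91). The thinned ratio was 0.39, inside the fold, with 4.67% and 6.0% of thinned cells positive, against 26.3% and 22.3% before thinning. Macrophage-like cells held 0 UMIs in both libraries. In endothelial-like cells there were 3 UMIs in the control and 41 in the case library, 7.10 and 36.9 CPM, a ratio of 5.2 whose log2 interval runs from 0.73 to 4.71, and 18 of the 41 lay in 1 cell. VSMC-like cells had 4.57 and 6.97 CPM of Cxcl12, 10.3% and 9.47% of the fibroblast-like level. These shares were above those of Dcn and Pi16, which the gate limits. The Cxcl12 log2 ratio in VSMC-like cells was 0.61, and 0.14 after thinning.

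Cxcl14, a constitutive stromal chemokine, was, of the 9 chemokines with more than a few UMIs, the one with the largest share of its UMIs in 1 class, the fibroblast-like cells, in both libraries. Its level was 28.8 CPM (25.3 to 32.6) from 244 UMIs in the control and 45.7 CPM (41.2 to 50.5) from 376 UMIs in the case library, 1.59-fold higher. The UMIs were spread differently: 25 of 750 control cells held it, 11 of them with 10 or more UMIs and 80.7% of the total, whereas 134 of 1501 case cells held it, 4 of them with 10 or more and 17.6% of the total. Its share of positive cells was 3.33% (2.17% to 4.88%) in the control and 8.93% (7.53% to 10.5%) in the case library (thinned, 1.87% and 3.93%). Without the 1% of cells richest in the gene the log2 ratio went from 0.67 to 1.53. VSMC-like cells held 3 and 6 UMIs, and endothelial-like and macrophage-like cells 0. Schwann-like cells held 0 UMIs in 18 control cells and 12 UMIs in 6 of 45 case cells. Their case level of 81.8 CPM (42.3 to 143) was above the fibroblast-like one, on few counts.

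Cxcl16, a membrane-tethered chemokine and scavenger receptor, was highest in endothelial-like cells and differed between the libraries in opposite directions from class to class. Endothelial-like cells had 298 CPM (248 to 355) in the control and 167 CPM (143 to 192) in the case library, 1.79-fold lower, with a UMI in 74.5% and 40.8% of cells (thinned, 23.6% and 16.8%). The log2 ratio was -0.84 (-1.18 to -0.50), and with TMM factors -0.55, inside the fold. Macrophage-like cells went from 90.4 CPM (63.7 to 125) to 156 CPM (126 to 192), 1.73-fold higher, on 37 and 92 UMIs; in the case library this was 93.7% of the endothelial-like level. The thinned log2 ratio there was 2.31 against 0.79 as counted. It rests on very few control UMIs, since 4.17% of 48 control and 18.0% of 111 case cells held the gene after thinning. VSMC-like cells had 16.4 CPM (14.2 to 18.8) and 28.1 CPM (25.4 to 31.1), 1.72-fold higher, with no cell above 5 UMIs and a thinned log2 ratio of 0.54, inside the fold. Fibroblast-like cells had 37.4 and 29.9 CPM, inside the fold as counted, but 2.07-fold lower after thinning. They were 11.9-fold lower, from 21.0 to 1.77 CPM, after the lowest class level was taken off as free RNA. The level taken off was the VSMC-like one, 16.4 and 28.1 CPM, itself higher in the case library. The 11.9-fold ratio therefore follows in part from the VSMC-like difference.

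Cx3cl1, the tethered ligand of the monocyte receptor CX3CR1, was found in endothelial-like and VSMC-like cells and differed little between the libraries in either class as a whole. Within the endothelial-like class, subsets split by Plvap or Emcn differed in opposite directions, as given below. Endothelial-like cells had 149 CPM (115 to 191) and 175 CPM (151 to 201), and VSMC-like cells 58.7 CPM (54.5 to 63.1) and 53.1 CPM (49.3 to 57.1). The VSMC-like level was 39.3% and 30.4% of the endothelial-like one, against 8.54% and 8.83% in fibroblast-like and 1.64% and 4.86% in macrophage-like cells. A UMI was found in 36.2% of control and 22.3% of case VSMC-like cells, shares that were 4.27% and 4.59% after thinning, with median depths of 12646 and 5516 UMIs. The macrophage-like class, whose cells held a median of 8695.5 and 4930 UMIs, had it in 1 of 48 and 4 of 111 cells. VSMC-like cells with Cx3cl1 carried 0.00015% and 0.000713% of their UMIs in endothelial markers, and those without it 0.000224% and 0.000419%. The share was thus lower in carrying cells of the control and higher in those of the case library. The gate itself keeps cells with several endothelial markers out of the VSMC-like class, so these shares cannot show where the transcript came from.

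Within the fibroblast-like class, Ccl2, Ccl7 and Cxcl1 were highest in cells rich in Gfpt2, the rate-limiting enzyme of the hexosamine pathway. Cells with at least 20 Gfpt2 UMIs per 10000 made up 28.3% of control and 30.4% of case fibroblast-like cells. Their Ccl2 level was 4219 and 2329 CPM against 1614 and 1237 CPM in the other fibroblast-like cells, 2.61-fold and 1.88-fold higher. Cxcl1 was 2.58-fold and 2.57-fold higher there, and Ccl7 2.51-fold and 1.86-fold. Such cells were also deeper, with medians of 15045.5 and 6361.5 UMIs.

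The Cxcl1 difference was found in each fibroblast-like subset with more than 6 control cells, while that of Ccl2 was not. In Gfpt2-rich cells Cxcl1 was 5694 CPM in the control and 2346 CPM in the case library, 2.43-fold lower. Of the others, cells with at least 5 UMIs per 10000 of Pi16, a marker of adventitial fibroblasts, had 2390 and 1113 CPM, 2.15-fold lower, and the remaining cells 1890 and 838 CPM, 2.26-fold lower. For Ccl2, Gfpt2-rich cells were 1.81-fold and the remaining cells 1.95-fold lower, from 2275 to 1168 CPM. Pi16-positive cells, 48.1% of the control but 24.3% of the case class, had 1294 and 1278 CPM, within counting error (log2 -0.02, -0.09 to 0.06). Cells outside both with at least 5 UMIs per 10000 of Postn, which encodes the matrix protein periostin, numbered 6 and 86. The 86 case cells had 1489 CPM of Ccl2 and 562 CPM of Cxcl1. The 6 control cells held 2 Cxcl1 UMIs, or 65.0 CPM, so that the ratio there went the other way on very few counts (log2 3.11, 1.25 to 6.17).

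Cxcl12 was higher in Pi16-positive cells, at 33.7 and 62.5 CPM, and in the remaining cells, at 37.2 and 62.3 CPM, while Gfpt2-rich cells had 60.9 and 85.9 CPM, 1.41-fold and inside the limit, and the Postn-positive case cells had 105 CPM, where the 6 control cells held 1 UMI. For Cxcl14, by contrast, the ratio within subsets was smaller than over the class: 1.16 in Gfpt2-rich, 1.29 in Pi16-positive and 1.15 in the remaining cells, against 1.59 in all. Their log2 intervals were wide, -0.23 to 0.66, -0.49 to 1.19 and -0.11 to 0.52, and the Pi16-positive one held the class value of 0.67. The Cxcl14 level was lowest in Pi16-positive cells, 9.13 and 11.8 CPM, and highest in the remaining cells, 73.2 and 84.3 CPM. Pi16-positive cells went from 48.1% to 24.3% and the remaining cells from 22.8% to 39.6% of the class. The part of these shares in the Cxcl14 ratio was not tested. Cxcl10 was 3.15-fold lower in the remaining cells, from 342 to 109 CPM, and inside the limit in Gfpt2-rich cells, at 104 and 141 CPM.

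**Figure D4:**
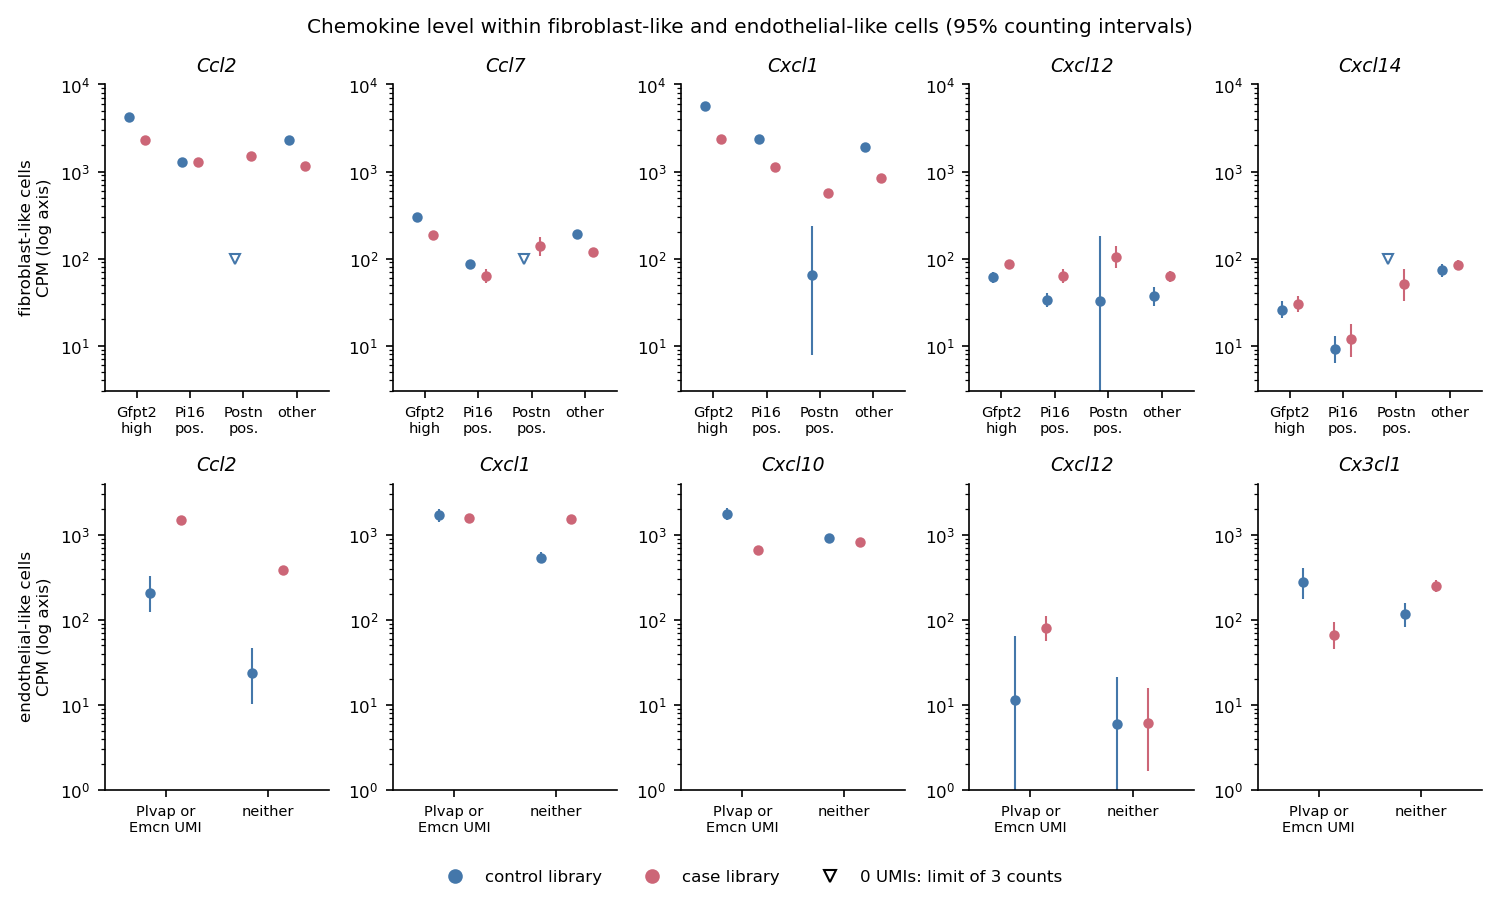
Chemokine level (CPM, log axis) within fibroblast-like (top) and endothelial-like (bottom) cells split by subset genes, for the control and case library, with 95% counting intervals; open triangles are the limit of a count of 0. Cxcl1 was lower in the case library in Gfpt2-rich, Pi16-positive and other fibroblast-like cells, and Ccl2 was level only in Pi16-positive cells, 1294 and 1278 CPM.

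Endothelial-like cells were split by a UMI of Plvap or Emcn, genes of fenestrated, capillary and venous endothelium. Such cells numbered 12 in the control and 106 in the case library, 21.8% and 44.5% of the class, so that the control side of each value rests on few cells, and a single UMI is found more readily in a deeper cell (medians of 6948 and 4070.5 UMIs). Ccl2 was higher in the case library both in cells with these genes, at 206 and 1496 CPM, and in cells without them, at 23.9 and 384 CPM, or 7.25-fold and 16.1-fold. Cxcl1 was level in cells with them, at 1684 and 1568 CPM, and 2.82-fold higher in cells without, at 540 and 1524 CPM. Cx3cl1 differed in opposite directions: 275 and 67.1 CPM in cells with Plvap or Emcn, 4.1-fold lower, and 116 and 251 CPM in cells without, 2.16-fold higher. Of the 41 Cxcl12 UMIs in the case library, 37 lay in cells with Plvap or Emcn. Cxcl16 was 2.89-fold lower in cells with these genes, and its ratio of 1.4 in cells without was inside the limit.

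Among VSMC-like cells, Cxcl16 was higher in the case library in those rich in Spp1, the osteopontin gene of modulated smooth muscle (20.5 and 33.3 CPM), and in the remainder without Notch1 (10.9 and 25.7 CPM), while those with Notch1 (19.8 and 28.8 CPM) were inside the limit at 1.45-fold. A single Notch1 UMI set the Notch1 subset, and it is found more readily in a deeper cell (VSMC-like medians of 12646 and 5516 UMIs). This subset, 26.9% and 20.6% of the class, and the remainder may therefore hold different cells in each library. Ccl2 had 183 and 56 UMIs in Notch1-positive and 48 and 57 UMIs in Spp1-rich cells. Over all VSMC-like cells 4 control cells held 222 of the 313 control UMIs of Ccl2, and these were not assigned to a subset here. Cx3cl1 was 56.0 and 59.4 CPM in Spp1-rich, 74.4 and 59.7 CPM in Notch1-positive and 48.0 and 47.7 CPM in the remaining cells, none of these ratios past 1.5-fold.

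Signal genes that accompany chemokine induction were read in the same cells. Fibroblast-like cells had 894 and 505 CPM of Il6, the acute-phase cytokine, 1.77-fold lower in the case library. They had 10.5 and 4.25 CPM of Tnfaip3, an inhibitor of NF-kB. Of 7 NF-kB target and feedback genes these were the 2 past the fold, where 16.2% of all genes compared in this class were lower. Nfkbia was inside the fold at 944 and 639 CPM. Icam1 (343 and 327 CPM) and Vcam1 (117 and 108 CPM), which hold leukocytes on the endothelium, were level. Il6 was found in 36.8% of control fibroblast-like cells with Cxcl1 and 19.0% of those without, and in 35.0% and 11.8% of case cells, at 1000 UMIs per cell. In case endothelial-like cells 3 of these 7 genes were higher and 1 lower, against 19.8% and 28.8% of all genes compared. The higher genes were Tnfaip3 with 1 and 21 UMIs, Il6 with 9 and 45, and Zc3h12a with 18 and 115. Each reached the limit of 20 UMIs only through the case library, where it was higher, so the number called higher rests on them. Zc3h12a, an RNase that limits cytokine transcripts, was at 42.6 and 104 CPM. The 1 lower gene, Nfkbiz, was inside the fold with TMM factors (log2 -0.50). Tissue digestion is known to induce immediate early and heat shock genes. In fibroblast-like cells, of 8 immediate early genes 0 were higher and 1, Junb, was lower (1058 and 608 CPM), and Fos stood at 1478 and 1449 CPM. Of 3 heat shock genes 0 were past the fold there, with Hspa1b at 7950 and 10250 CPM. Over all genes compared in this class 9.66% were past the fold higher and 16.2% lower. In endothelial-like cells 5 of 8 were lower, against 28.8% of all genes compared, with Fos at 4816 and 2045 CPM, and with TMM factors Jun (log2 -0.32) and Dusp1 (-0.57) were inside the fold, which leaves 3 of 8. Macrophage-like cells had 4 of 8 lower, against 14.8% of all genes. Of the 3 heat shock genes 1 was lower in each of these classes, and in endothelial-like cells this one, Hspb1, was inside the fold with TMM factors (log2 -0.41). Their part in the chemokine levels was not tested.

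Most of the receptors analysed had few or no UMIs in any class, while Cxcr4 and Ackr3 were well counted. Of 14 receptors listed, 12 were analysed here, and 4 of the 12 reached 20 UMIs in a class. The CCL2 and CCL7 receptor Ccr2 and the atypical receptor Ackr1 had no single entry under these symbols and could not be read. Cxcr4 was highest in macrophage-like cells, 694 CPM from 284 UMIs in the control and 1806 CPM from 1064 UMIs in the case library, 2.6-fold higher. In endothelial-like cells it went from 3 UMIs in 2 cells to 139 UMIs in 37 cells, 7.10 and 125 CPM, a ratio of 17.6 with a log2 interval of 2.56 to 6.44, and 124 of the 139 lay in cells with Plvap or Emcn. VSMC-like and fibroblast-like cells had 1.76 to 3.64 CPM of Cxcr4.

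Ackr3, the scavenger of CXCL12, lay in the fibroblast-like cells that also held most Cxcl12, at 889 CPM from 7545 UMIs and 632 CPM from 5206 UMIs, within 1.5-fold. Endothelial-like cells had 409 and 200 CPM of it, 2.05-fold lower in the case library, and VSMC-like cells 43.0 and 32.1 CPM. Ackr4, a scavenger of CCL19 and CCL21, was an endothelial-like transcript at 104 and 36.9 CPM, 2.82-fold lower, on 44 and 41 UMIs. Ccr1 stood at 83.1 and 64.5 CPM in macrophage-like cells. Of 5 proteases that cut chemokines 4 could be compared in endothelial-like cells, and 3 were lower there, where 28.8% of all genes compared were: the sheddase Adam10 was 1.73-fold and Adam17 1.6-fold lower in the case library, at 310 and 179 CPM and at 80.5 and 50.4 CPM, and Mmp2 2.22-fold lower, at 78.1 and 35.1 CPM. With TMM factors the log2 ratios of Adam10 and Adam17, -0.50 and -0.38, were inside the fold and that of Mmp2, -0.86, was not. In the other classes none of the proteases compared was past the fold.

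**Figure D5:**
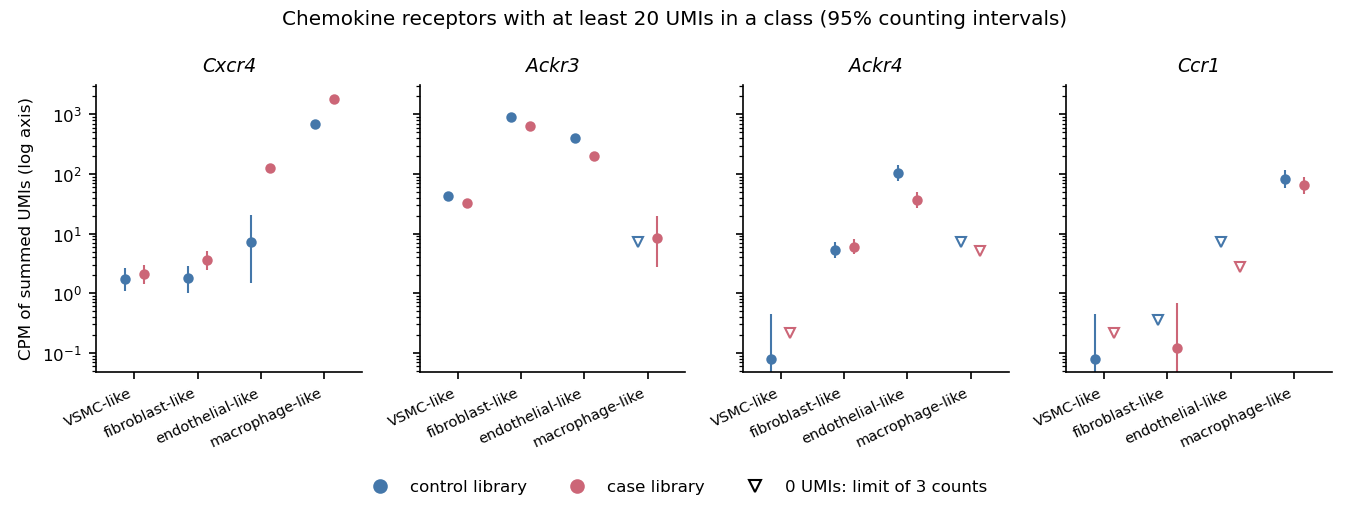
Level (CPM of summed UMIs, log axis) of the 4 chemokine receptors with at least 20 UMIs in a class, by cell class and library, with 95% counting intervals; open triangles are the limit of a count of 0. Cxcr4 was higher in the case library in endothelial-like (7.10 and 125 CPM) and macrophage-like cells (694 and 1806 CPM), and Ackr3 was highest in fibroblast-like cells.

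Genes with the most similar pattern were looked for over the 11 sums of a class and a library with at least 30 cells, among 9105 genes, by Pearson correlation of log2(CPM + 10). These sums share libraries, depth and many class differences, so the values are a description. Cxcl2 was closest to Ctsz, Atp2b1 and Vps54 (0.99 each), Cx3cl1 to Rassf9, Mtap and Cav2 (0.99, 0.98 and 0.97), and Cxcl14 to Steap1, Entpd2 and Gfra2 (each 0.98). Ccl2 was closest to Stk17b, Nampt and Gclc (0.97, 0.96 and 0.96), Ccl7 to Pip4p1, Tle4 and Tnfrsf1b (0.98, 0.97 and 0.97), and Cxcl1 to C1galt1, Plaur and Man1b1 (0.98, 0.97 and 0.96). The nearest genes were Wdr33, Ripk3 and Tent2 for Cxcl10 (0.98, 0.97 and 0.96), Uspl1, Tardbp and Azin1 for Cxcl12 (0.94, 0.93 and 0.92), and Lgals9, Prcp and Elk3 for Cxcl16 (0.96, 0.95 and 0.95).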

How the data were processed

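Single-cell RNA-seq libraries of 1 control and 1 injured pool of carotid arteries were analysed. The deposited values are UMI counts per gene and barcode, which the authors made with Cell Ranger 3.1.0 on the rat build Rnor_6.0, both libraries in 1 matrix; the submitters' processing notes also name Seurat. Barcode suffixes were assigned to libraries by the barcode numbers that the study states.

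Barcodes within 2 SD of their library's mean log10 UMIs and log10 genes, within 3 robust SD of a line of genes on UMIs and with at most 20% mitochondrial UMIs were kept (2742 control, 4930 case), and those under 1000 UMIs were left out (513 control, 40 case). Classes were gated on marker UMIs: VSMC-like and fibroblast-like cells had at least 0.5% of UMIs in their markers, with a fibroblast share of both marker sets of at most 30% or at least 80%; endothelial-like, macrophage-like and Schwann-like cells had at least 3, 4 and 3 different markers detected, which is easier in deeper cells, and at most 0.5% of UMIs in VSMC and in fibroblast markers (1% for fibroblast markers in Schwann-like cells). Doublets were treated by Scrublet as an alternative only. UMIs were summed per class and library, and ratios were formed from CPM, with an exact conditional binomial interval. With 1 library per group no test was possible, and calls rest on the 1.5-fold limit. The genes named are the 10 chemokines, list genes with at least 20 UMIs in a class, the 3 genes closest to each chemokine, and markers. The chemokines and lists were chosen with earlier results of these data known. A gene of the interferon list is not reported here. Promoters are from RefSeq (GRCr8); no coordinates of Rnor_6.0 are given. Python 3.11.15, numpy 2.4.6, scipy 1.17.1, scanpy 1.11.5, leidenalg 0.10.2 and edgeR 4.0.16 (TMM factors only) were used. Scripts were tested on simulated data.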

Additional observations from a re-analysis of the deposited data

How the results depend on the processing

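Of 31 ratios of a chemokine in a class, 17 were past 1.5-fold. These 17 kept their side and direction with at most 10% mitochondrial UMIs and with the barcodes shared by both libraries left out, the latter chosen after seeing the data. With TMM factors 16 did so, and 15 each without barcodes under 2000 UMIs, without likely doublets, under a stricter gate and in graph clusters. Without the 1% of cells richest in the gene it was 13 of 16, and after thinning 8 of 16. It was 13 of 13 after the lowest class level was taken off as free RNA. That correction forms no ratio for a class that itself holds the lowest level in a library. Left out were therefore Ccl2, Ccl7 and Cxcl16 in VSMC-like and Cxcl2 in fibroblast-like cells. Of these, Ccl2, Ccl7 and Cxcl2 reversed under other settings.

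In VSMC-like cells the number called higher went from 3 to 1 without barcodes under 2000 UMIs, in graph clusters and without the richest 1%, and to 0 after thinning; after the free RNA correction it was 1 by construction, since VSMC-like cells themselves hold the lowest level of Ccl7 and Cxcl16 and form no ratio for them; the number called lower went from 1 to 0 under the stricter gate and to 4 in graph clusters. Ccl2 there reversed without likely doublets (0.081), as did Ccl7 under the stricter gate (-0.03) and in graph clusters (-1.39). In fibroblast-like cells the number higher went from 3 to 1 after thinning, where Cxcl2 reversed (-0.001). The number lower there went from 2 to 4 after the free RNA correction, with Cxcl10 (-0.71) and Cxcl16 (-3.57) added. For Cxcl16 the level taken off was the VSMC-like one, itself higher in the case library, and the value follows in part from that. The Ccl2 log2 ratio there was -0.49 thinned, -0.59 with TMM factors and -0.69 without shared barcodes, and that of Cxcl1 -1.35 thinned, -1.22 with TMM factors and -1.45 without the richest 1%. In endothelial-like cells the number lower went from 1 to 2 under the stricter gate and without the richest 1%, and to 0 with TMM factors; the Ccl2 log2 ratio was 6.58 under the stricter gate, 1.52 in graph clusters, 5.14 without the richest 1% and 4.51 after the free RNA correction. In macrophage-like cells the number lower went from 1 to 0 after thinning. Schwann-like cells aside, the class with the highest case level was kept for 8 of 9 chemokines under the stricter gate and 7 of 9 after thinning. Cxcl16 moved to macrophage-like cells in both and Cxcl12 to endothelial-like cells after thinning. The Cxcl12 move rests on few cells, since 2.94% of case endothelial-like cells held it after thinning. As counted, 18 of its 41 UMIs there lay in 1 cell of 2330 UMIs. The cause of these changes was not tested. Depth limits classes of few cells: 3 counts in control endothelial-like cells correspond to 7.10 CPM.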

Other observations

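Chemokines outside the 10 were read from a list of 25, of which 24 were analysed here and 14 reached 20 UMIs in a class. In VSMC-like cells 0 of 6 compared were higher and 3 lower, against 8.07% and 17.4% of all genes. Fibroblast-like cells had 2 of 6 higher and 1 lower (all genes, 9.66% and 16.2%). Macrophage-like cells had 2 of 8 higher and 1 lower (20.9% and 14.8%). In endothelial-like cells 2 of 2 were higher and 0 lower (19.8% and 28.8%). Ccl21 in endothelial-like cells, Cxcl13 and Ccl24 in macrophage-like cells and Cxcl13 in fibroblast-like cells had under 20 control UMIs. They reached the limit of 20 only through the case library, where they were higher. The numbers called higher rest partly on them, and in macrophage-like cells wholly. Cxcl13, the B cell attractant, went in macrophage-like cells from 3 UMIs in 2 of 48 control cells to 384 UMIs in 35 of 111 case cells, 7.33 and 652 CPM, a ratio of 88.9 with a log2 interval of 4.92 to 8.76. In fibroblast-like cells it had 9 and 93 UMIs, 1.06 and 11.3 CPM. Cxcl9, the interferon-gamma-induced neighbour of Cxcl10, was 6.2-fold higher in case fibroblast-like cells, at 13.6 and 84.1 CPM, whereas Cxcl10 in the same cells was 188 and 129 CPM. The Cxcl9 difference was 5.44-fold in Gfpt2-rich, 2.81-fold in Pi16-positive and 7.83-fold in the remaining fibroblast-like cells.

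Pf4, a platelet-type chemokine also made by macrophages, was 1.78-fold lower in case macrophage-like cells, at 3143 and 1770 CPM, and Ccl24, an eosinophil attractant, was 2.47-fold higher on 9 and 32 UMIs. Cxcl3, a further neutrophil attractant, followed Cxcl2 with 7452 and 8575 CPM in macrophage-like cells. Ccl21, the lymphatic ligand of CCR7, had 203 UMIs in 3 of 238 case endothelial-like cells and 0 in the 55 control cells. Ccl19, another CCR7 ligand, was 11.9 and 15.1 CPM in VSMC-like cells, within 1.5-fold. In the small Schwann-like class, Ccl2 was 1099 CPM in 18 control cells and 40.9 CPM in 45 case cells, on 97 and 6 UMIs, 48 of the 97 in 1 cell.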
